A study of Homo sapiens with 6 samples.

Results

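The platelet-derived growth factor (PDGF) genes were followed in oncogene-activated human fibroblasts. They comprise the 4 ligand genes PDGFA, PDGFB, PDGFC and PDGFD, the 2 receptor tyrosine kinase genes PDGFRA and PDGFRB, and PDGFRL, which encodes a receptor-like protein without a kinase domain. The 7 genes were chosen by symbol, each was found once among the 58219 genes of the deposited table, and all 7 passed the filter on low values that left 13315 genes for testing. The cells were IMR90, a normal diploid fibroblast line from human fetal lung, carrying ER-RASG12V, a mutant RAS joined to part of the oestrogen receptor so that the drug 4-hydroxytamoxifen (4OHT) switches it on. One group of 3 libraries came from cells given 100 nM 4OHT for 72 h (day 3 in the sample titles, called committed to senescence), and the other 3 came from cells given the same dose for 30 h (day 1.5, called uncommitted). Every library thus carries the fusion and the drug, no untreated cells were analysed here, and commitment cannot be told apart from time on the drug. Replicates are lettered A, B and C in both groups; nothing says whether they were separate cultures, so the p-values measure the spread between these libraries, which may be technical.

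PDGF ligands act as dimers that draw receptors together and start tyrosine phosphorylation, and they are classical mitogens and chemoattractants for fibroblasts. PDGFRα binds dimers of the A, B and C chains, whereas PDGFRβ binds mainly B and D chains. The A and B chains are trimmed inside the cell by furin-like proteases. The C and D chains are secreted with a CUB domain that extracellular proteases such as the plasminogen activators remove before the factor can bind.

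Libraries held 13221152 to 15703544 reads. The largest axis of variation across libraries carried 81.26% of the variance and separated 72 h from 30 h, and replicate C of each group lay apart from A and B on the second axis, which carried 6.986%. Mitochondrial genes took 4.23 to 4.83% of reads at 72 h and 3.56 to 4.06% at 30 h. Fibroblast markers were abundant, with summed normalised counts (reads divided by the authors' size factor of the library) of 62133 to 71751 at 72 h and 175145 to 182216 at 30 h. Summed epithelial, leukocyte and platelet markers stayed at 10.2 or below in every library, and 4 endothelial markers summed to 25.2 to 35.7 at 72 h and 11.2 to 19.0 at 30 h. CDH5, KRT5, KRT14, CD3E and GP9 had no reads in any library. In RNA from whole cultures, fewer cells of one type and less RNA per cell cannot be told apart.

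In the promoter windows of PDGFD and PDGFA, too few bases (18 and at most 71) preceded the first exonic base to be printed. Promoter sequences are therefore shown for the 2 receptor genes alone. They are the stretches before a RefSeq transcription start (GRCh38.p14) that lie outside any GENCODE 29 exon, given 5′ to 3′ on the strand of the gene, with matches to the CCAAT box and the GC box in capitals. The PDGFRB stretch is at chr5:150155873-150156095 on the minus strand and holds 223 bases. The PDGFRA stretch is at chr4:54233710-54233959 on the plus strand, before the second of 2 annotated starts, and holds 250 bases.
PDGFRB: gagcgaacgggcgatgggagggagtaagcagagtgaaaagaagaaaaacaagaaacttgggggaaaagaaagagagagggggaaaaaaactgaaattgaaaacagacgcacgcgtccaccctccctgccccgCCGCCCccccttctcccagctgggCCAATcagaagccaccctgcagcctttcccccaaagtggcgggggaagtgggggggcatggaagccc
PDGFRA: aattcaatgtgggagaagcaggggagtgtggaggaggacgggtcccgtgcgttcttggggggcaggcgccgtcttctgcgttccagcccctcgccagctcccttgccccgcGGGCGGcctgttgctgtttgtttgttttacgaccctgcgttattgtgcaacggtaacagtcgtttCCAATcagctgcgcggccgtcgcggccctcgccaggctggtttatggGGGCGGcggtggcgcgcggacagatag

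Motifs were searched on both strands in the 250 bases before each start, and none of the matches of different motifs overlapped. The letters were CCAAT for the CCAAT box, GGGCGG for the GC box, TATAAA for the TATA box, TGANTCA for the AP-1 site and CACGTG for the E-box. A CCAAT box began 94 bases before the PDGFRB start and 74 bases before the second PDGFRA start. A GC box lay 118 bases before the PDGFRB start, where it reads as its reverse complement. GC boxes also lay 139 and 27 bases before the second PDGFRA start. The window before the first PDGFRA start held an AP-1 match 32 bases away and neither of those boxes. The PDGFD window held 1 GC box, 81 bases before the start, and the 4 PDGFA windows held 1 to 5 GC boxes, with a CCAAT box in 1 of them. Among 35116 windows of 250 bases in the RefSeq table, 32.0% held a CCAAT box, 42.6% a GC box, 10.7% a TATA box, 6.57% an AP-1 site and 6.34% an E-box. These matches describe letters only, and both receptor genes hold the 2 commonest of the motifs.

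Which PDGF genes differ between cells committed to senescence and cells not yet committed was asked by comparing 72 h with 30 h. PDGFRB, PDGFD, PDGFB and PDGFC were lower at 72 h, and no member was higher; PDGFRA, PDGFRL and PDGFA did not pass the test. By limma on log2(normalised count + 1) with Benjamini-Hochberg adjustment over all 13315 genes, 4 of 7 members passed at 0.05 in the lower direction, where 25.0% of all tested genes did, and 0 in the higher direction, where 23.6% did. No member was higher at an unadjusted p under 0.05 either. In the authors' deposited table, by edgeR and by DESeq2 the same 4 members passed and 0 were higher. PDGFRB, PDGFD and PDGFB, 3 of the 7, fell at least 2-fold, against 6.70% of all tested genes. PDGFB is in both counts although it reached the filter through the 30 h libraries; the other members passed it in both groups.

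**Figure D1:**
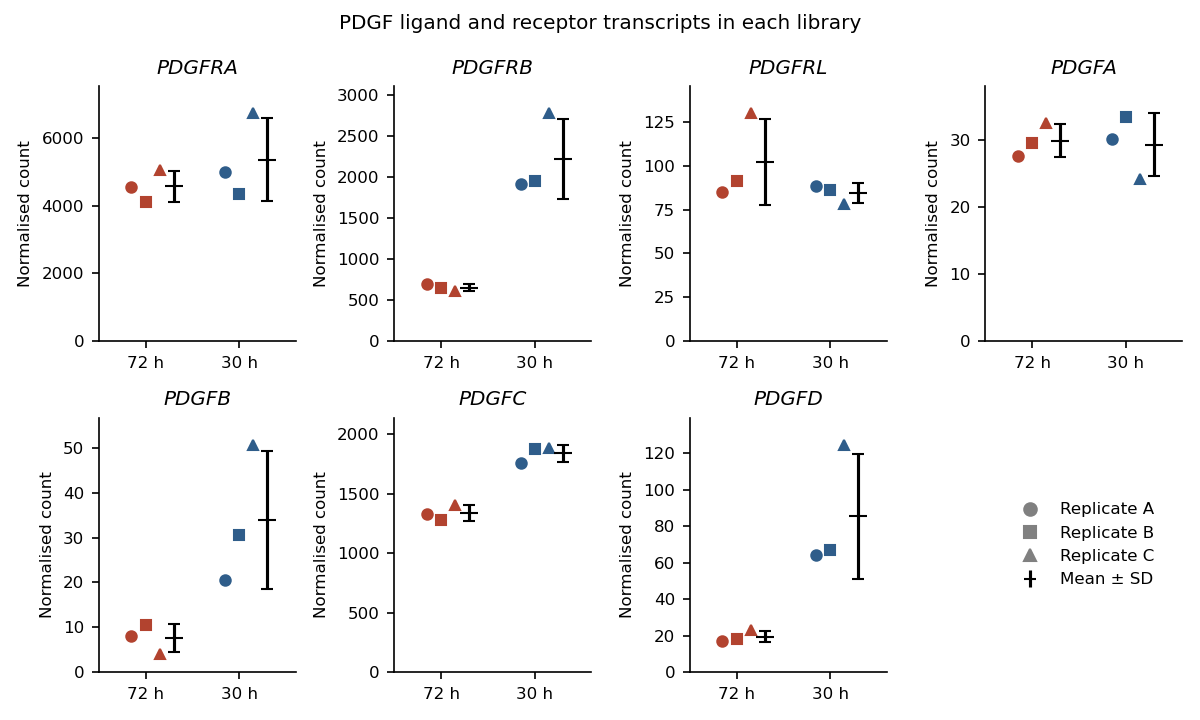
Normalised counts of the 7 PDGF genes in each library, 72 h at the left and 30 h at the right of each panel; symbols mark replicates A, B and C, and black bars the mean ± SD of 3 libraries. PDGFRB, PDGFB, PDGFC and PDGFD passed as lower at 72 h (adjusted p under 0.05 by limma), as did 25.0% of all tested genes. The 30 h replicate C library is the highest for PDGFRA, PDGFRB, PDGFB and PDGFD.

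PDGFRB encodes the receptor for B and D chains (ENSG00000113721.13, GRCh38 chromosome 5, 150113837 to 150155872, minus strand, 7137 exonic bases). It had 697, 650 and 604 normalised counts in the 72 h libraries A, B and C, against 1913, 1951 and 2772 in the 30 h libraries A, B and C. All 72 h libraries lay below all 30 h libraries, and 30 h replicate C was the highest. The means were 651 ± 46.4 at 72 h and 2212 ± 486 at 30 h (SD, n = 3 each), which leaves 29.4% of the 30 h level. The log2 fold change was -1.74 (SE 0.15, 95% interval -2.10 to -1.39), a 3.35-fold lower level, with an adjusted p of 1.2e-04 by limma. Without 30 h replicate C it was -1.57, and without the C library of either group -1.52. Only 2.13% of tested genes had a more negative fold change.

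PDGFRA, the receptor that also takes A and C chains and a common surface marker of fibroblasts (ENSG00000134853.11, chromosome 4, 54229097 to 54298247, plus strand, 9732 exonic bases), had 4548, 4124 and 5048 normalised counts at 72 h, against 5003, 4353 and 6737 at 30 h. The groups overlapped, and the 30 h replicate C library was again the highest. The log2 fold change was -0.21 (SE 0.17), with an adjusted p of 0.358 by limma. Its 95% interval, -0.63 to 0.21, reaches from 0.647 to 1.15 times the 30 h level. Without 30 h replicate C the log2 fold change was -0.03. PDGFRA shares 1533 exonic bases, 15.8% of its exonic length, with the same-strand gene AC058822.1, and no source used here says how reads in that stretch were assigned.

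The 2 receptors were compared within each library, where the size factor cancels. PDGFRA stood above PDGFRB per kilobase by 4.79, 4.65 and 6.13 times in the 72 h libraries A, B and C, against 1.92, 1.64 and 1.78 times in the 30 h libraries A, B and C. Every 72 h ratio exceeded every 30 h ratio. The mean log2 ratio was 2.36 ± 0.22 at 72 h and 0.83 ± 0.11 at 30 h (SD, n = 3 each). The difference of 1.54 had a two-sided exact permutation p of 0.10, the smallest that 20 assignments of the libraries allow. As a share of both receptors per kilobase, PDGFRB made up 14.0 to 17.7% at 72 h and 34.3 to 37.9% at 30 h. Replicate C, which raised both receptors at 30 h, lay within the range of A and B for this share at 30 h (35.9%), and at 72 h it had the lowest share.

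**Figure D2:**
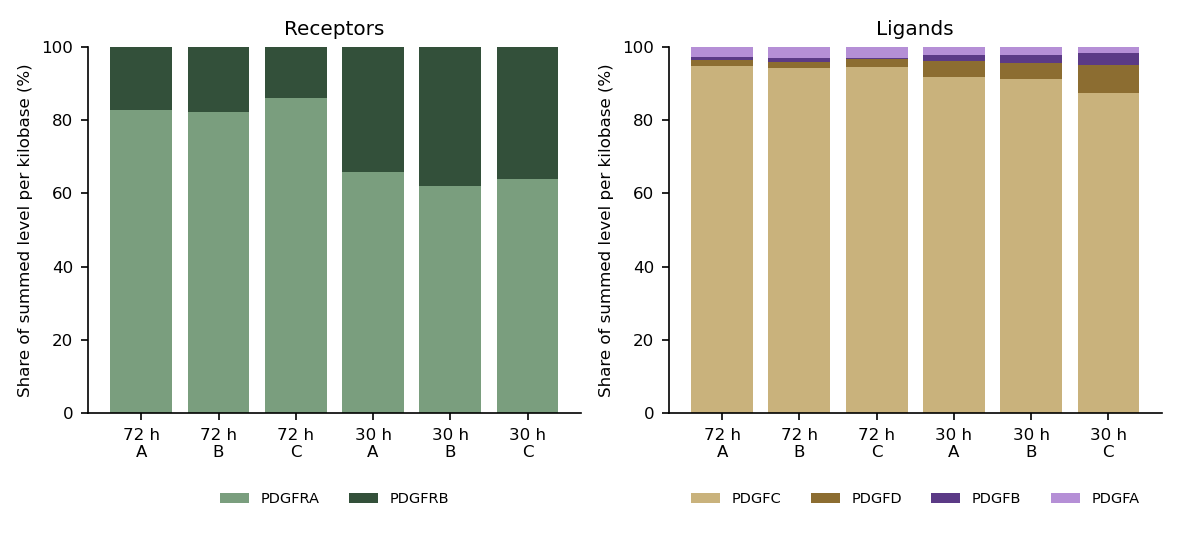
Stacked bars give each gene's share, in percent, of the summed level per kilobase of the 2 receptors (left) and the 4 ligands (right) in each library, with 72 h libraries before 30 h libraries. PDGFRB holds 14.0 to 17.7% of the receptor sum at 72 h and 34.3 to 37.9% at 30 h, and PDGFC holds 94.1 to 94.9% of the ligand sum at 72 h and 87.4 to 91.9% at 30 h.

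PDGFRL (ENSG00000104213.12, chromosome 8, 17576433 to 17644071, plus strand, 2409 exonic bases) had 84.8, 91.6 and 130.1 normalised counts at 72 h, against 88.7, 86.4 and 78.0 at 30 h. The groups overlapped, and 72 h replicate C alone stood clear above the other 5 libraries. Its log2 fold change was 0.25 (SE 0.17, 95% interval -0.14 to 0.64), with an adjusted p of 0.264 by limma. Without 72 h replicate C it was 0.06. MTUS1, on the opposite strand, shares 277 exonic bases (11.5%) with PDGFRL, and it too was highest in 72 h replicate C. MTUS1 had 20.4, 14.8 and 42.0 normalised counts at 72 h, against 8.77, 10.2 and 19.0 at 30 h. No source used here says whether counting kept strand, and the part of MTUS1 in the PDGFRL values was not tested.

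Among the ligands that need extracellular cleavage, PDGFD fell steeply and PDGFC modestly. PDGFD, the ligand of PDGFRβ with a CUB domain (ENSG00000170962.12, chromosome 11, 103907186 to 104164379, minus strand, 4266 exonic bases), had 17.4, 18.3 and 23.1 normalised counts at 72 h, against 64.3, 67.1 and 124 at 30 h. The groups did not overlap, and 30 h replicate C held 1.93 times the lowest 30 h library. The log2 fold change was -2.01 (SE 0.27, 95% interval -2.61 to -1.41), with an adjusted p of 2.3e-04 by limma. Without 30 h replicate C it was -1.71, and without the C library of either group -1.82. DDI1, on the opposite strand and sharing 193 exonic bases with PDGFD, had no reads in any library.

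PDGFC, a ligand of PDGFRα (ENSG00000145431.10, chromosome 4, 156760454 to 156971394, minus strand, 5593 exonic bases), had 1333, 1277 and 1407 normalised counts at 72 h, against 1757, 1876 and 1883 at 30 h. The libraries within each group lay close together and the groups were well apart. The means were 1339 ± 65.2 at 72 h and 1839 ± 71.3 at 30 h (SD, n = 3 each), so 72.8% of the 30 h level was left. The log2 fold change was -0.46 (SE 0.06, 95% interval -0.59 to -0.33), with an adjusted p of 1.8e-04 by limma. The C libraries did not stand apart here, and without them the log2 fold change was -0.48.

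The 2 classical ligands differed from each other. PDGFB, the chain that binds both receptors (ENSG00000100311.16, chromosome 22, 39223359 to 39244751, minus strand, 3761 exonic bases), had 8.17, 10.5 and 4.20 normalised counts at 72 h, against 20.5, 30.5 and 50.6 at 30 h. These values rest on 8, 12 and 4 reads at 72 h and 21, 30 and 48 reads at 30 h. The groups did not overlap, although the highest library exceeded the lowest 2.49 times at 72 h and 2.47 times at 30 h. By limma the log2 fold change was -2.00 (SE 0.40, 95% interval -2.89 to -1.10), with an adjusted p of 0.0025. PDGFB reached the count minimum of 10 in 1 of 3 libraries at 72 h and in all 3 at 30 h, so it entered the test through the group in which it was higher. The size of the difference leaned on the C libraries, and without them the log2 fold change was -1.34, with an adjusted p of 0.0032.

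PDGFA, the chain that binds PDGFRα alone (ENSG00000197461.13, chromosome 7, 497258 to 520296, minus strand, 4151 exonic bases), had 27.6, 29.6 and 32.5 normalised counts at 72 h, against 30.2, 33.5 and 24.3 at 30 h. The range at 72 h lay inside the range at 30 h. Its log2 fold change was 0.04 (SE 0.21, 95% interval -0.43 to 0.50), with an adjusted p of 0.905 by limma. Its sign turned without 72 h replicate C (-0.02) and without 30 h replicate C (-0.09), so no direction can be given. The interval reaches from 0.741 to 1.42 times the 30 h level.

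**Figure D3:**
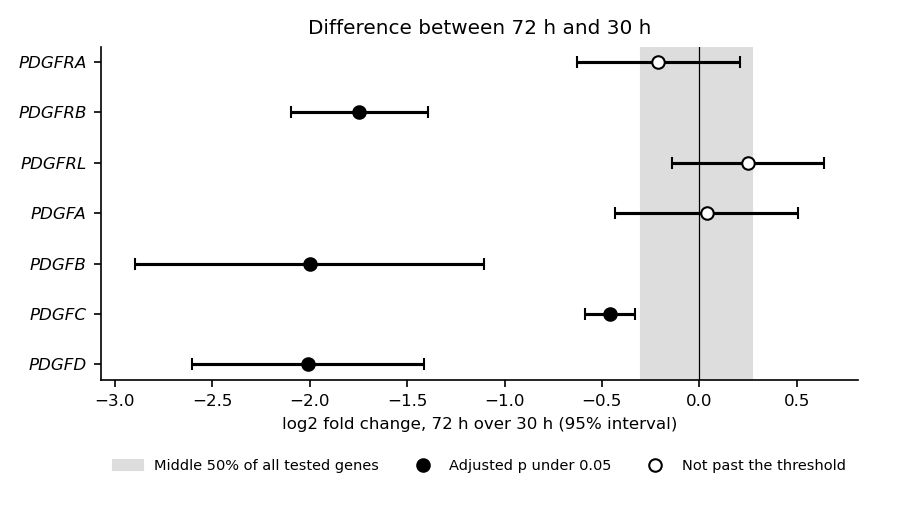
Points are log2 fold changes of 72 h over 30 h from limma and bars their 95% intervals; filled points passed an adjusted p of 0.05, and the grey band spans the middle 50% of all 13315 tested genes (-0.30 to 0.27). PDGFRB, PDGFB and PDGFD lie near -2 and PDGFC at -0.46, outside the band; PDGFRA, PDGFRL and PDGFA lie inside it, with intervals that include 0.

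Levels were compared between genes after division by exonic length, the merged length of all annotated exons of a gene. Which transcripts were present was not tested, and the spread between libraries does not include that uncertainty. At 72 h the order of normalised counts per kilobase was PDGFRA (470.0), PDGFC (239), PDGFRB (91.1), PDGFRL (42.4), PDGFA (7.21), PDGFD (4.59) and PDGFB (2.02), and the ranges of neighbours in that order did not overlap. At 30 h the order was PDGFRA (551), PDGFC (329), PDGFRB (310), PDGFRL (35.0), PDGFD (19.99), PDGFB (9.002) and PDGFA (7.07). At 30 h PDGFC and PDGFRB did not differ beyond their spread, nor did PDGFB and PDGFA. PDGFA thus stood above PDGFD and PDGFB at 72 h and was the lowest of the 7 at 30 h, with means that differed by less than its own spread.

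Placed among all tested genes by level per kilobase, PDGFRA lay above 91.4% of them at 72 h and 92.7% at 30 h. PDGFC lay above 81.6% at 72 h and 86.6% at 30 h. PDGFRB lay above 58.3% at 72 h and 85.7% at 30 h, the widest move of any member. PDGFA, PDGFB and PDGFD lay in the lowest 12% at 72 h, above 11.6%, 2.17% and 7.09% of tested genes.

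**Figure D4:**
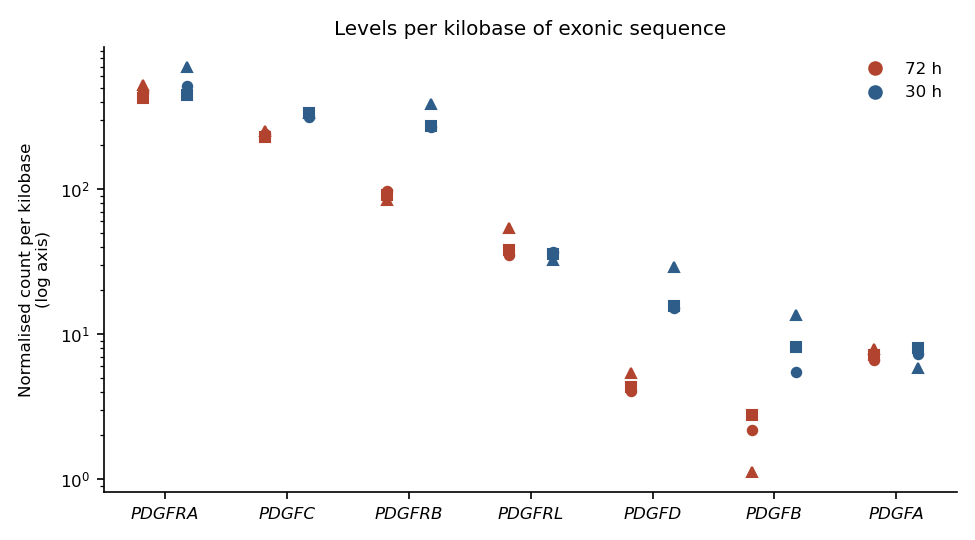
Normalised counts per kilobase of exonic sequence on a log axis for each member and library, 72 h left of 30 h, genes ordered by their 30 h mean. PDGFRA and PDGFC stay at the top at both times, whereas PDGFRB lies beside PDGFC at 30 h (310 against 329) and below it at 72 h (91.1 against 239).

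The ligand pool was mostly PDGFC. The 4 ligands summed to 242 to 266 normalised counts per kilobase at 72 h and 342 to 385 at 30 h. PDGFC made up 94.5 ± 0.37% of that sum at 72 h and 90.2 ± 2.43% at 30 h (SD, n = 3 each). PDGFD made up 1.81 ± 0.21% at 72 h and 5.42 ± 1.86% at 30 h, and PDGFB 0.811 ± 0.37% at 72 h and 2.43 ± 0.97% at 30 h. PDGFA made up 2.85 ± 0.17% at 72 h and 1.95 ± 0.38% at 30 h. The groups did not overlap in any of the 4 shares. Shares are parts of one sum, so a share can move without a change in the gene itself. PDGFC exceeded PDGFA per kilobase by 31.96 to 35.8 times at 72 h and by 41.5 to 57.6 times at 30 h. The mean log2 ratio was 5.06 ± 0.09 at 72 h and 5.55 ± 0.26 at 30 h, a difference of -0.50 with a two-sided exact permutation p of 0.10, again the smallest possible with 3 against 3. Without 30 h replicate C the difference was -0.35, and without the C library of either group -0.32. PDGFA rests on 23 to 34 reads per library, with the fewest in 30 h replicate C, where the ratio was highest.

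Of 7 genes listed for proteases that act on PDGF chains, 5 were tested, 4 fell and 0 rose by limma (0 also at an unadjusted p under 0.05, by edgeR and by DESeq2), with a median log2 fold change of -0.40, beside 0.0051 over all tested genes, of which 25.0% fell and 23.6% rose. PCSK5, at 0.03 on the log2 scale, did not pass, and PCSK6 and ST14 were too low to test. FURIN, the convertase of the A and B chains, had 1597, 1669 and 1666 normalised counts at 72 h, against 2419, 2484 and 2645 at 30 h. Its log2 fold change was -0.61, and that of its relative PCSK7 was -0.40. PLAT, the tissue plasminogen activator that cleaves PDGF-CC, had 6058, 6368 and 4448 normalised counts at 72 h, against 19319, 19804 and 33266 at 30 h. It fell 4.20-fold, with 30 h replicate C highest, as for PDGFRB and PDGFD. PLAU, the urokinase that cleaves PDGF-DD, averaged 71700 ± 2624 at 72 h and 91176 ± 6608 at 30 h (SD, n = 3 each), a log2 fold change of -0.34. Limma adjusted p-values of these 4 genes were at most 0.0026. C10orf55, on the opposite strand, shares 31.1% of the exonic length of PLAU.

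Of 6 genes for secreted proteins and co-receptors that bind PDGF chains, all tested, 4 fell and 1, LRP1, rose, with a median log2 fold change of -0.95. Over all tested genes 25.0% fell and 23.6% rose, and 1 of the 4 calls, that of A2M, was lost under several alternatives. THBS1, the matrix protein thrombospondin, had 3879, 5223 and 2313 normalised counts at 72 h, against 36560, 39248 and 31804 at 30 h, a 9.91-fold drop. SPARC, a matricellular protein that binds B chains, had 7660, 7896 and 7057 normalised counts at 72 h, against 25838, 27461 and 29906 at 30 h, a 3.68-fold drop. No 72 h library came near a 30 h library for either gene. HSPG2, the proteoglycan perlecan, fell by 0.41 on the log2 scale. LRP1, an endocytic receptor that associates with PDGFRβ, had 8116, 8058 and 9743 normalised counts at 72 h, against 6211, 6298 and 7089 at 30 h, a log2 fold change of 0.40. A2M, a plasma protease inhibitor that carries PDGF-BB, averaged 451 ± 213 at 72 h and 1145 ± 97.9 at 30 h, with an adjusted p of 0.042 by limma. That call was lost without any one 30 h replicate, at an adjusted p of 0.092 without A, 0.099 without B and 0.112 without C. NRP1, a co-receptor, had a log2 fold change of -0.13 with an adjusted p of 0.491 by limma, and passed at -0.37 with the C library of each group left out.

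Of 24 receptor-proximal signalling genes, 22 were tested; 9 rose and 1 fell, while 12 did not pass. Their median log2 fold change was 0.13, and 23.6% of all tested genes rose and 25.0% fell. PIK3R1, the regulatory subunit of PI3-kinase that docks on the receptors, had 698, 698 and 921 normalised counts at 72 h, against 428, 424 and 411 at 30 h, 1.82-fold higher. SRC, a kinase recruited to the receptors, had 578, 582 and 687 normalised counts at 72 h, against 318, 372 and 355 at 30 h, 1.76-fold higher. FYN, a kinase of the same family, rose 1.45-fold. Adjusted p-values by limma for these 3 genes ran up to 0.012. PIK3CA was the 1 gene that fell (singled out with its value known). It encodes a catalytic subunit of PI3-kinase and stood at -0.26 on the log2 scale; KCNMB3 shares 35.8% of its exonic length on the opposite strand. The adaptors GRB2 and SHC1 had log2 fold changes of 0.08 and -0.05 and did not pass; GRB2 passed with upper-quartile normalisation (adjusted p 0.049 by limma).

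Of 12 genes for receptor inhibitors and turnover, all tested, 3 rose and 2 fell, with a median log2 fold change of 0.06; these counts are near or below the 23.6% that rose and 25.0% that fell among all tested genes. LRIG1, a membrane protein that restrains receptor tyrosine kinases, had 1927, 2037 and 2354 normalised counts at 72 h, against 884, 793 and 643 at 30 h, 2.73-fold higher. SH2B3, an adaptor that dampens cytokine and growth factor signalling, rose 2.21-fold. RASA1, the RAS GTPase-activating protein that docks on PDGFRβ, had 1481, 1461 and 1370 normalised counts at 72 h, against 3392, 3561 and 3141 at 30 h, a 2.34-fold drop. Opposite-strand genes share 12.9% of the exonic length of LRIG1 and 14.7% of that of RASA1. The ubiquitin ligase CBL had a log2 fold change of -0.05 and did not pass. PTPN2 (0.28) and PTPRJ (-0.24), phosphatases that act on PDGF receptors, passed at an adjusted p of 0.045 and 0.036 by limma, and neither passed in the authors' deposited table (0.095 for PTPN2 and 0.112 for PTPRJ). The call of PTPN2 was lost without 72 h replicate A (0.176) or B (0.108) and without 30 h replicate A (0.125), B (0.079) or C (0.071). The call of PTPRJ was lost without 72 h replicate A (0.126) or B (0.112) and without 30 h replicate A (0.088) or B (0.103).

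Early response genes, which serum or PDGF induces in resting fibroblasts, went both ways: of 19 tested, 8 rose and 5 fell, with a median log2 fold change of 0.31. Over all tested genes 23.6% rose and 25.0% fell, so the count that fell is near that background. The chemokine gene CXCL1 had 19203, 17392 and 22879 normalised counts at 72 h, against 213, 342 and 943 at 30 h. The lowest 72 h library was far above the highest 30 h library, and the 30 h libraries themselves were spread widely. The chemokine gene CCL2 had 1359, 1413 and 1912 normalised counts at 72 h, against 295, 247 and 340 at 30 h, 5.28-fold higher. IER3, a stress and growth factor response gene, rose 4.89-fold, and the transcription factor ATF3 rose 2.51-fold. Singled out with their values known, the 5 lower genes were the transcription factor genes FOSL1 (-0.63), KLF6 (-1.20), KLF10 (-0.39) and NR4A1 (-1.30) and the nuclear protein gene IER2 (-0.47), all on the log2 scale. IER3-AS1 overlaps 26.5% of the exonic length of IER3, and AC011446.2 30.8% of that of IER2, each on the opposite strand.

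The VEGF genes encode the nearest structural kin of the PDGF chains. Of 5 genes found, 3 could be tested, of which 2 rose and 1 fell. Over all tested genes 23.6% rose and 25.0% fell. VEGFA had 8031, 7639 and 9056 normalised counts at 72 h, against 2125, 1830 and 2134 at 30 h, 4.06-fold higher. VEGFB rose 1.28-fold, and VEGFC, the lymphatic growth factor, averaged 3062 ± 203 at 72 h and 5843 ± 515 at 30 h (SD, n = 3 each), 1.91-fold lower. Of the other class III receptor tyrosine kinases, CSF1R, the receptor of CSF1, had 51.1, 57.5 and 58.7 normalised counts at 72 h, against 9.75, 18.3 and 21.1 at 30 h, 3.41-fold higher. KIT and FLT3 did not reach the filter: FLT3 had no reads, and KIT had 0, 0 and 4.20 normalised counts at 72 h, against 7.80, 19.3 and 20.04 at 30 h. KIT was lower in the authors' deposited table (adjusted p 0.0023). Of 4 ligands for those receptors, 2 were tested and neither passed: KITLG at -0.16 and CSF1 at -0.50 on the log2 scale, with adjusted p-values by limma of 0.299 and 0.091. CSF1 did pass without 72 h replicate B, at -0.69, and with the C library of each group left out both passed, at -0.16 for KITLG and -0.40 for CSF1.

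**Figure D5:**
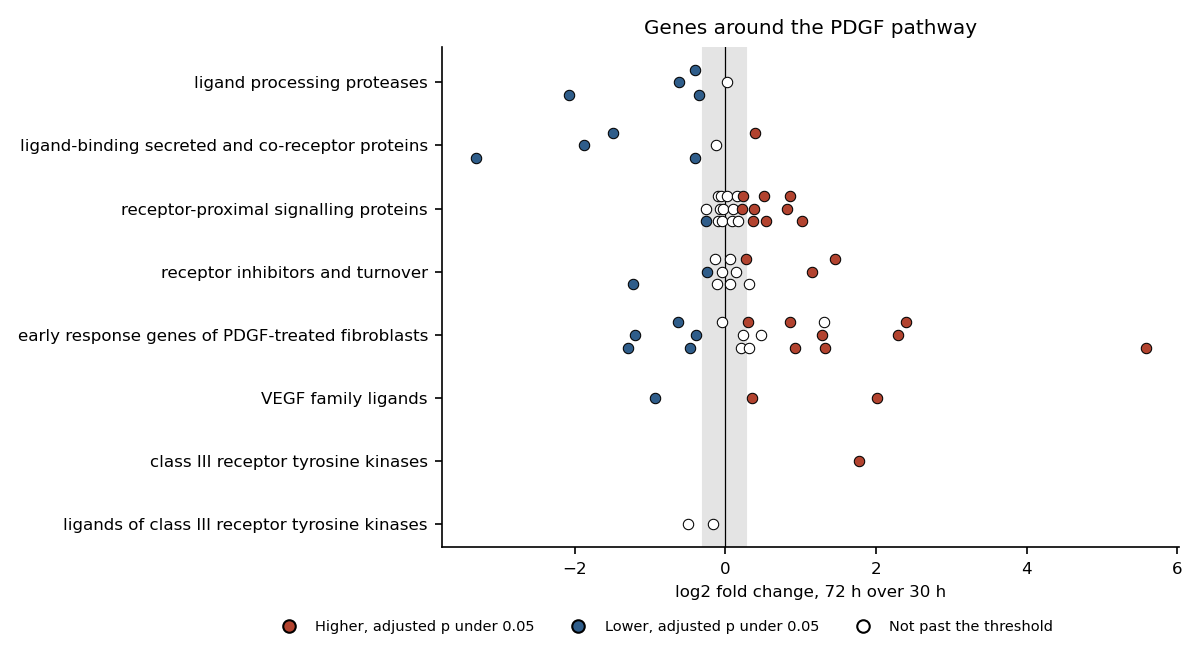
Each point is the log2 fold change of 72 h over 30 h of one tested gene in a list around the PDGF pathway; red points passed an adjusted p of 0.05 as higher, blue points as lower, white points did not pass, and the grey band spans the middle 50% of all tested genes. Of 5 tested proteases and 6 ligand-binding genes, 4 are lower in each list. Of 22 tested receptor-proximal genes, 9 are higher, 1 is lower and 12 did not pass. Over all tested genes 23.6% are higher and 25.0% lower. CXCL1 lies farthest right at 5.58.

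Other genes that mark mesenchymal cells moved beside PDGFRB. Of 9 fibroblast markers 6 fell, 1 rose and 2 did not pass. Over all tested genes 25.0% fell and 23.6% rose. COL1A1, the main collagen chain, averaged 10295 ± 1266 normalised counts at 72 h and 38797 ± 8463 at 30 h, and VIM, the intermediate filament vimentin, averaged 40009 ± 3286 at 72 h and 96300 ± 11900 at 30 h (SD, n = 3 each). FAP, a surface protease of activated fibroblasts, rose by 0.62 on the log2 scale. Decorin (DCN) and lumican (LUM) had log2 fold changes of -0.81 and -0.61 and did not pass. With 30 h replicate C left out both did, at -0.50 for DCN and -0.35 for LUM. Both also passed with all libraries by DESeq2 (adjusted p 0.021 for DCN and 0.0030 for LUM). In the authors' deposited table both passed too (adjusted p 0.026 for DCN and 0.0052 for LUM).

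Pericytes also express PDGFRB at a high level. Of the 5 markers of pericytes and vascular smooth muscle, 4 were tested. NOTCH3 (-0.99) and KCNJ8 (-1.96) fell on the log2 scale, RGS5 (1.79) rose, and ABCC9 (-1.28) did not pass. Over all tested genes 25.0% fell and 23.6% rose. KCNJ8 reached 10 normalised counts in the 30 h libraries alone, so it entered the test through the group in which it was higher. ABCC9 did pass without 30 h replicate C, at -2.08, and by DESeq2 at -1.62 (adjusted p 0.030). MYH11, which defines smooth muscle, had at most 3.16 normalised counts in any library. The 5 markers summed to 583 to 751 normalised counts in 72 h libraries and 658 to 915 in 30 h libraries. The part of these fibroblast and pericyte markers in the PDGFRB result was not tested.

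For each member, the 2 genes whose log2 values followed it most closely over the 6 libraries were taken from 10552 tested genes by Pearson's r; all 6 libraries share the 2 groups and their size factors, so these values describe and test nothing. PDGFRB was followed most closely by ROCK2 (r = 0.9995), a kinase of the actin cytoskeleton, and SHC4 (r = 0.9986), an adaptor of receptor tyrosine kinases. SHC4 had 76.6, 73.2 and 73.4 normalised counts at 72 h, against 275, 285 and 424 at 30 h, with the same high 30 h replicate C. PDGFD was followed by WDR47 and PRKACB, PDGFB by DLAT and ZNF268, and PDGFC by C16orf52 and MESDC2, all at r of 0.996 or above. PRKACB, a catalytic subunit of protein kinase A, had 1642, 1559 and 1762 normalised counts at 72 h, against 3149, 3386 and 4664 at 30 h. PDGFRA was followed by PCDHGA12 and ANKRA2, PDGFA by RPP40 and DNASE1, and PDGFRL by C12orf66 and MAPK14, at r of 0.9747 to 0.9933. DLAT followed PDGFB at r = 0.9986 with a log2 fold change of only -0.12, so likeness here speaks of shape and not of size.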

How the data were processed

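Per the labels' protocols, mRNA libraries were made from total RNA with the KAPA mRNA HyperPrep kit. Per the submitters' processing notes, the tools were Trimmomatic 0.35, STAR 2.5.1b and DESeq2 1.18.1, with GRCh38; no source used here names the counting program, its use of strand or the annotation. The deposited signal values are read counts the authors divided by size factors: in all 6 libraries 100% of values came out as whole reads within 0.01. The authors' deposited table also gives a log2 fold change, its standard error and an adjusted p-value per gene.

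Here limma 3.58.1 in R 4.3.3 (trend and robust) was fitted to log2(deposited value + 1) for every gene that reached 10 normalised counts in 3 or more libraries; edgeR 4.0.16 and DESeq2 1.42.0 on the recovered reads were alternatives, calling 3162 and 2645 genes higher and 3331 and 2914 lower. The limma script was tested on simulated data. Exonic lengths came from GENCODE 29 and promoters from RefSeq (GRCh38.p14), with 8 windows for 4 members. Chromosome 8, which holds PDGFRL, was left out of the promoter search, and PDGFB and PDGFC had no entry in the promoter source. Ratios were tested by exact permutation with scipy 1.17.1.

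The members and gene lists were chosen with earlier results of these data known. Named genes were all members; in each list up to 4 called genes with the largest absolute fold change whose mean reached 50 in the group where they were higher, and every called gene where 5 or fewer were called; and, for likeness, the 2 closest genes per member with a mean of at least 50 over the libraries. One gene that this rule names is not reported here. Other genes are given as counts, as markers or as examples chosen after their values were seen. Alternatives were other scalings, tools, pseudocounts (0.5 and 5), no filter, each library left out, a replicate block and, added after seeing the data, both C libraries left out.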

Additional observations from a re-analysis of the deposited data

How the results depend on the processing

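The 4 called members stayed called and lower under all 16 alternatives, with log2 fold changes of -2.30 to -1.34 for PDGFB, -0.49 to -0.41 for PDGFC, -2.18 to -1.71 for PDGFD and -1.84 to -1.52 for PDGFRB. PDGFRA passed under 1 alternative, the replicate block by letter (log2 fold change -0.21, adjusted p 0.033 by limma), which gave 5 members called; PDGFA and PDGFRL passed under none. Nothing in the labels says that the letters mark a shared culture or day, so the main fit had no block. Deviations of same-letter libraries correlated at 0.007 for A, 0.172 for B and 0.185 for C. Among the 72 h libraries, B and C correlated best with their own letter, and A did not. The block raised the calls over all genes to 3271 higher and 3452 lower, beside 3144 and 3328. Leaving out 1 library gave 2529 to 3174 higher and 2689 to 3295 lower genes, and 38 to 44 called pathway genes beside 41. Leaving out both C libraries, chosen after seeing the data, gave 3462 higher, 3619 lower and 50 pathway genes. The PDGFRA to PDGFRB log2 ratio difference ranged from 1.41 to 1.61 and that of PDGFC to PDGFA from -0.58 to -0.35 with 1 library left out; within letters the exact sign-flip p was 0.25 for each, the smallest 3 pairs allow. Of 51 other named or marker genes, 41 kept their side of the threshold under every alternative that gave one; A2M, PTPN2 and PTPRJ lost a call and DCN, LUM, ABCC9, NRP1, GRB2, KITLG and CSF1 gained one under some. A2M lost its call with no filter (adjusted p 0.131) and under the replicate block (0.054); KITLG and CSF1 passed with no filter (0.043 and 0.0012) and under the block (0.018 and 0.0088). The cause was not tested. With 4 to 12 reads at 72 h, PDGFB is the member whose precision depth limits most.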
